A study of Mus musculus with 3 samples.

Results

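S-phase Sox9-positive tip cells are epithelial cells of the embryonic lung that carried Sox9, the transcription factor of the distal tips, and high levels of genes of DNA replication. They were chosen by a rule on counts of unique molecular identifiers (UMIs, each standing for 1 captured RNA molecule). Sox9-positive tip cells were barcodes with at least 5000 UMIs, at most 10% mitochondrial UMIs, at least 3 UMIs of Epcam, fewer than 10 UMIs of the macrophage genes C1qa, C1qb and C1qc together, no UMI of the airway factor Sox2 and at least 1 UMI of Sox9. Before the Sox9 step, barcodes above the 75th percentile of their library for 4 alveolar type 1 genes (Hopx, Clic5, Ager and Akap5) or for 3 alveolar type 2 genes (Sftpa1, Sftpb and Cxcl15) were dropped. Mitotic tip cells were those above the 75th percentile of their library for Ccnb1, Cdc20, Ube2c and Plk1. Of the others, the tip cells above the 67th percentile for Mcm5, Mcm6, Pcna, Cdc6 and Ccne2 were the S-phase tip cells. The rule gave 523 S-phase tip cells of 1657 tip cells and of 12967 barcodes, against 414 mitotic tip cells and 720 remaining tip cells outside both gates. By library there were 145, 130 and 248 S-phase tip cells.

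At this stage the distal tips of the branching lung hold progenitors that divide and give rise to the airway and alveolar lineages, under FGF10 from the mesenchyme and with Sox9, Id2, Etv5 and Bmp4 as tip genes. Before S phase, origin recognition proteins, Cdc6 and Cdt1 load the MCM helicase onto chromatin, and in S phase the helicase is fired and the polymerases with their clamp, PCNA, copy the DNA. Many genes of these steps are known targets of the E2F transcription factors, whereas many genes of mitosis carry a CHR element bound by the MuvB complexes, and replicative histone mRNAs accumulate in S phase and end in a stem-loop in place of a poly(A) tail.

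The study sequenced sorted epithelial cells of C57/B6 mouse lung at E14.5, while the lung is still branching, with the 10x Genomics 3' single-cell assay. Lungs of the embryos of 2 females were pooled, digested with Dispase II, Collagenase A and DNase, and sorted as live cells with antibodies to Epcam, the epithelial adhesion molecule, and to Icam1. All animals were of this 1 strain and age with no treatment or engineered allele named in the labels, and the groups differ in the sort: 2 libraries of Epcam+ Icam+ cells and 1 library of Epcam+ cells. Separate pools for the libraries are not named in the labels, so calls of the fits rest on library to library spread, which may be technical. The Epcam+ sort is 1 library, so no p is given for a difference between the sorts.

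The 3 libraries held 74170599, 67843828 and 84460347 UMIs, and the sums over S-phase tip cells held 3822076, 3577507 and 7614023. The Epcam+ counts came from another version of Cell Ranger and another gene table than the Epcam+ Icam+ counts, and only this library stands for its sort, so sort, library and gene table cannot be told apart. Between 0 and 3 barcodes were shared by any pair of libraries, and none of these was an S-phase tip cell. In the S-phase tip cells the median depth was 26038, 26524.5 and 29482 UMIs per cell. The remaining tip cells were shallower in the Epcam+ Icam+ libraries, with 19117 and 19691.5 UMIs, and alike in the Epcam+ library, with 29302. Levels are in CPM, the UMIs of a gene per 1000000 UMIs summed over the cells of a class in a library, always in the order Epcam+ Icam+ library 1, Epcam+ Icam+ library 2 (replicates 1 and 2 of the labels) and Epcam+ library. A fold change is a log2 difference from edgeR with its standard error (SE).

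The promoters of 3 of the genes that define the gate are shown because they carry the E2F-type letters that many genes of the replication lists share. Sequences are from RefSeq (GRCm38.p6), on the strand of the gene and 5' to 3', with the E2F-type letters in capitals. The letters searched were TTTCCCGC, TTTCGCGC, TTTGCCGC and TTTGGCGC on either strand, and none of these words contains a CHR word. The stretch of Mcm5, a subunit of the replicative helicase, lies at chr8:75109345-75109374 on the plus strand, with its match 153 to 146 bases before the RefSeq start. Those of Mcm6, another helicase subunit, lie at chr1:128359797-128359826 (match 110 to 103 bases before the RefSeq start) and at chr1:128359734-128359763 (47 to 40 bases), both on the minus strand. The stretch of Cdc6, the helicase loader, lies at chr11:98908002-98908031 on the plus strand, 138 to 131 bases before the RefSeq start. The RefSeq starts differ from those of the GENCODE gene models whose coordinates are given with the levels. The Cdc6 stretch carries the letters as their reverse complement, and it lies within the GENCODE gene model of Cdc6, which begins further upstream.
Mcm5: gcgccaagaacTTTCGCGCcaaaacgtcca
Mcm6, distal match: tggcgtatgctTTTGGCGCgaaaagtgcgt
Mcm6, proximal match: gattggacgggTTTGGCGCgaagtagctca
Cdc6: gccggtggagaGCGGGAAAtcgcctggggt
The 300-base window of Pcna, the sliding clamp, held none of these letters. Ccne2 had no window and was not searched.

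The E2F-type letters were found in 8 of 14 origin licensing genes with a window (57.1%), 8 of 24 replication fork genes (33.3%), 6 of 16 G1/S regulators (37.5%), 5 of 15 chromatin assembly genes (33.3%), 4 of 14 repair and checkpoint genes (28.6%) and 2 of 6 cohesion genes (33.3%). Over all 27025 genes with a window 704 (2.6%) held them. Genes of the rule are kept in these shares, and Mcm5, Mcm6 and Cdc6 are among the 8 origin licensing genes with a match. The nucleotide supply list, with 1 of 19 genes (5.3%), the G2 and mitosis list, with 2 of 44 (4.5%), and the distal tip list, with 1 of 11 (9.1%), were nearer to that share. With the shorter letters GGCGC or GGCGGG this order did not hold, at 78.6% of origin licensing, 86.4% of G2 and mitosis and 50.5% of all genes. The CHR letters TTTGAA and TTTCGAA, on either strand, were found in 33 of 44 G2 and mitosis genes (75%) against 5640 of all genes (20.9%). The shares were 4 of 24 replication fork genes (16.7%), 4 of 14 origin licensing genes (28.6%), 5 of 16 G1/S regulators (31.2%) and 2 of 6 cohesion genes (33.3%). No histone gene of the list had a window. A match is a run of letters in this window and does not show that a factor binds there.

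**Figure D1:**
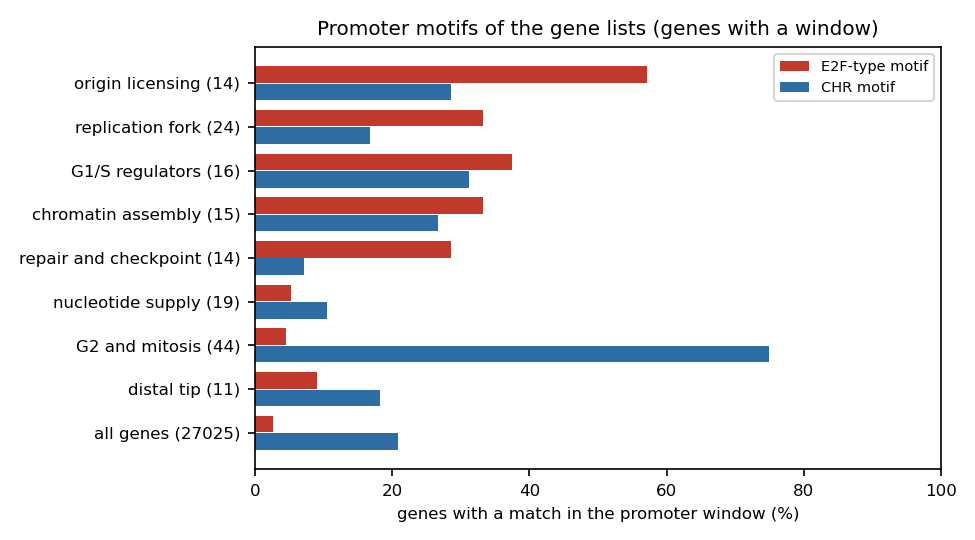
Percentage of the genes with a RefSeq promoter window that hold the E2F-type or the CHR letters (x axis), by gene list and for all genes, with the number of genes with a window in brackets (y axis). Of the lists drawn, the E2F-type bar is longest for origin licensing (57.1%) and the CHR bar is longest for G2 and mitosis (75%), against 2.6% and 20.9% of all genes. Genes of the rule are included in the bars.

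The 5 genes of the gate are described without a test, since their values chose the cells. Pcna, at chr2:132249162-132253314 on the minus strand (GRCm38, GENCODE M21), was at 371, 361 and 304 CPM in S-phase tip cells, against 74.2, 69.5 and 143 in remaining and 92.1, 112 and 89.5 in mitotic tip cells. Mcm5 (chr8:75109569-75128439) was at 94.9, 84.8 and 208 against 22.0, 18.5 and 91.0 in remaining tip cells. Mcm6 (chr1:128331590-128359664) was at 175, 159 and 266 against 54.0, 48.0 and 126. Cyclin E2, the product of Ccne2, drives S-phase entry with Cdk2, and Cdc6 loads the helicase. Cdc6 (chr11:98907801-98923940) was at 37.1, 43.5 and 59.1 against 4.25, 3.79 and 21.6. Ccne2 (chr4:11191351-11204779) was at 29.7, 24.4 and 49.0 against 2.998, 2.78 and 20.3. The rule cuts on the sum of the 5 genes, and each of them was higher in S-phase tip cells of each library, but the remaining tip cells of the Epcam+ library lay above those of the Epcam+ Icam+ libraries for every one of them. Sox9 (chr11:112782224-112787760) was at 77.0, 73.3 and 95.03 in S-phase and 87.2, 98.6 and 83.0 in remaining tip cells.

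The gate was set within each library, and it fell at different levels. The lowest S-phase tip cell had a summed level of the 5 genes of 387.3, 320.9 and 638.1 CPM, and the nearest tip cell outside had 384.6, 315.8 and 637.7. The median S-phase tip cell had 649.7, 625.2 and 849.9, or 17, 16 and 26 UMIs of the 5 genes. The median remaining tip cell had 140.1, 114.4 and 384.3, or 2, 2 and 12 UMIs, so the remaining tip cells of the Epcam+ library held more replication RNA than those of the other libraries. At 1 cut of 385.2 for every library, 145 of 346 non-mitotic tip cells (41.9%), 109 of 322 (33.9%) and 410 of 575 (71.3%) would have passed.

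Genes of replication outside the gate were higher in S-phase than in remaining tip cells, as groups and in every library. This contrast runs along the score that chose the cells, so it is described by its values and no p is given. A gene was counted as past the size threshold where its log2 difference was at least 0.5 in the same direction in all 3 libraries. The count was 154 genes higher and 62 lower of 10643 tested (1.45% and 0.583%). The edgeR fit, at an adjusted p below 0.05, called 138 genes higher (1.3%) and 43 lower (0.404%). The median log2 difference over all genes was -0.01. Of 13 measured origin licensing genes outside the gate 10 were past the threshold higher and 0 lower, with a median of 1.24. Of 31 replication fork genes all lay above 0 in every library and 16 were past the threshold, with a median of 1.09. In the Epcam+ library the differences were smaller, with medians of 0.67 for licensing and 0.52 for the fork against 1.54 and 1.66 in Epcam+ Icam+ library 1 and 1.46 and 1.62 in library 2.

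Among the licensing genes, Mcm2, a further helicase subunit, was at 62.1, 48.9 and 129.9 in S-phase and 24.2, 21.5 and 80.1 in remaining tip cells, a log2 difference of 1.02 ± 0.14 (SE). Each library held more in its S-phase tip cells, but the remaining tip cells of the Epcam+ library, at 80.1, lay above the S-phase tip cells of both Epcam+ Icam+ libraries. Mcm4 was at 93.6, 84.8 and 85.2 against 28.5, 27.05 and 44.6 (1.39 ± 0.16), and here the classes did not overlap across libraries. Cdt1, which brings the helicase to the origin, was at 54.7, 48.3 and 102 against 12.7, 10.9 and 56.4 (1.53 ± 0.25). Its partner and inhibitor geminin, Gmnn, was at 194, 178 and 228 against 50.5, 57.6 and 152 (1.34 ± 0.23). The loader and its inhibitor were thus both higher in S-phase tip cells of each library. Orc6, a subunit of the origin recognition complex, was at 199, 191 and 189.7 against 67.7, 69.5 and 123 (1.18 ± 0.17), whereas Orc2, another subunit, differed less, at 36.0, 38.8 and 32.6 against 20.0, 31.1 and 21.7 (0.57 ± 0.13).

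At the fork, the GINS subunit Gins2 was at 101, 93.0 and 175 in S-phase and 26.7, 28.8 and 101 in remaining tip cells (1.39 ± 0.20). Cdc45, which joins GINS and MCM in the active helicase, was at 39.2, 44.1 and 61.5 against 8.99, 6.57 and 25.9 (1.82 ± 0.25). DNA ligase 1, Lig1, which seals the lagging strand, was at 205, 177 and 212 against 42.0, 33.6 and 127 (1.73 ± 0.30). For Cdc45 and Lig1 no S-phase value overlapped a value of the remaining tip cells, while for Gins2 the remaining Epcam+ cells lay among the S-phase values. Clspn, claspin, which carries the checkpoint signal at stalled forks, was at 124, 126 and 65.3 against 15.7, 17.4 and 35.0 (2.11 ± 0.37). It differed most in the Epcam+ Icam+ libraries. Pole3, a small subunit of polymerase epsilon with a further role in chromatin remodelling, stood at the other end of the list, at 101, 90.7 and 127 against 71.7, 84.7 and 105 (0.28 ± 0.09). The large subunit Pole was scarce, at 29.7, 29.5 and 12.4 against 4.25, 6.57 and 10.1, and its Epcam+ values were close to each other.

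Of 20 nucleotide supply genes 19 lay above 0 in every library and 6 were past the threshold, with a median of 0.77. Rrm2, the regulated subunit of ribonucleotide reductase, was at 130.2, 110.4 and 274 in S-phase and 17.0, 19.0 and 118 in remaining tip cells (2.09 ± 0.29). Thymidylate synthase, Tyms, was at 279, 299 and 264 against 71.5, 84.4 and 197 (1.37 ± 0.27). Both of these genes of deoxynucleotide synthesis were above the remaining cells in each library. Cad and Impdh2, which make pyrimidines and guanine nucleotides for RNA as well as DNA, differed little. Cad was at 22.6, 25.3 and 15.9 against 15.49, 15.2 and 18.1 (0.29 ± 0.19), with the Epcam+ value in the opposite order. Impdh2 was at 89.7, 94.1 and 255 against 72.2, 75.8 and 226 (0.25 ± 0.07).

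The G1/S regulators were mixed, with 8 of 20 past the threshold higher, 1 lower and a median of 0.77. Cyclin E1, Ccne1, which drives S-phase entry with Cdk2, was at 29.7, 26.1 and 59.0 in S-phase and 11.7, 7.58 and 30.7 in remaining tip cells (1.23 ± 0.17). E2f1, an activating E2F, was at 55.5, 48.0 and 63.6 against 13.2, 13.6 and 29.6 (1.56 ± 0.18). The repressive E2f8 was at 40.5, 46.1 and 21.8 against 4.75, 8.09 and 11.3 (1.92 ± 0.34). Activator and repressor thus lay higher in the same cells. Cyclin D2, which acts earlier in G1, lay the other way, with Ccnd2 at 221, 219 and 228 against 427, 345 and 309 (-0.69 ± 0.09) and lower in each library. Its kinase Cdk4 was at 604, 588 and 1112 against 554, 541 and 1098 (0.08 ± 0.05), differing more between the sorts than between the classes. The Cdk inhibitor Cdkn1c (p57) was the 1 gene of the list past the threshold lower. It was at 1102, 968 and 428 in S-phase and 1604, 1704 and 636 in remaining tip cells, a log2 difference of -0.65 ± 0.05, and lower in each library.

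In the chromatin assembly list 10 of 16 genes and in the repair and checkpoint list 12 of 20 were past the threshold higher and 0 lower, with medians of 1.28 and 1.12. Chaf1b, a subunit of the histone chaperone CAF-1, was at 58.4, 56.2 and 105 in S-phase and 11.7, 13.6 and 50.5 in remaining tip cells (1.66 ± 0.23). Uhrf1, which brings the maintenance methyltransferase to new DNA, was at 101, 88.5 and 103 against 28.2, 26.3 and 53.5 (1.46 ± 0.18). The methyltransferase itself, Dnmt1, was at 186, 175 and 73.7 against 50.7, 48.5 and 60.2 (1.31 ± 0.29), and in the Epcam+ library its S-phase value was only a little above the remaining cells. Slbp, which binds the stem-loop of histone mRNAs, was at 165, 146 and 320.5 against 56.2, 38.7 and 203 (1.31 ± 0.21). Among repair genes Ung, the uracil glycosylase, was at 56.8, 49.2 and 134 against 11.2, 7.58 and 55.2 (1.90 ± 0.24). Brca1, of homologous recombination, was at 56.8, 57.0 and 15.8 against 7.75, 8.59 and 7.60 (2.12 ± 0.32), and Atr, the replication stress kinase, was at 17.4, 15.2 and 5.39 against 9.24, 16.7 and 5.45 (0.23 ± 0.23). Ung and Brca1 were higher in each library, whereas for Atr the S-phase and remaining values lay on both sides of each other.

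Without the Epcam+ library the fork median was 1.76 in place of 1.09. The edgeR fit called 1284 genes higher without the Epcam+ library and 18 without Epcam+ Icam+ library 1. It called 0 without Epcam+ Icam+ library 2 (994 at an unadjusted p below 0.05) and 0 where libraries were not kept as a block (265). DESeq2 with the block called 170 higher.

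**Figure D2:**
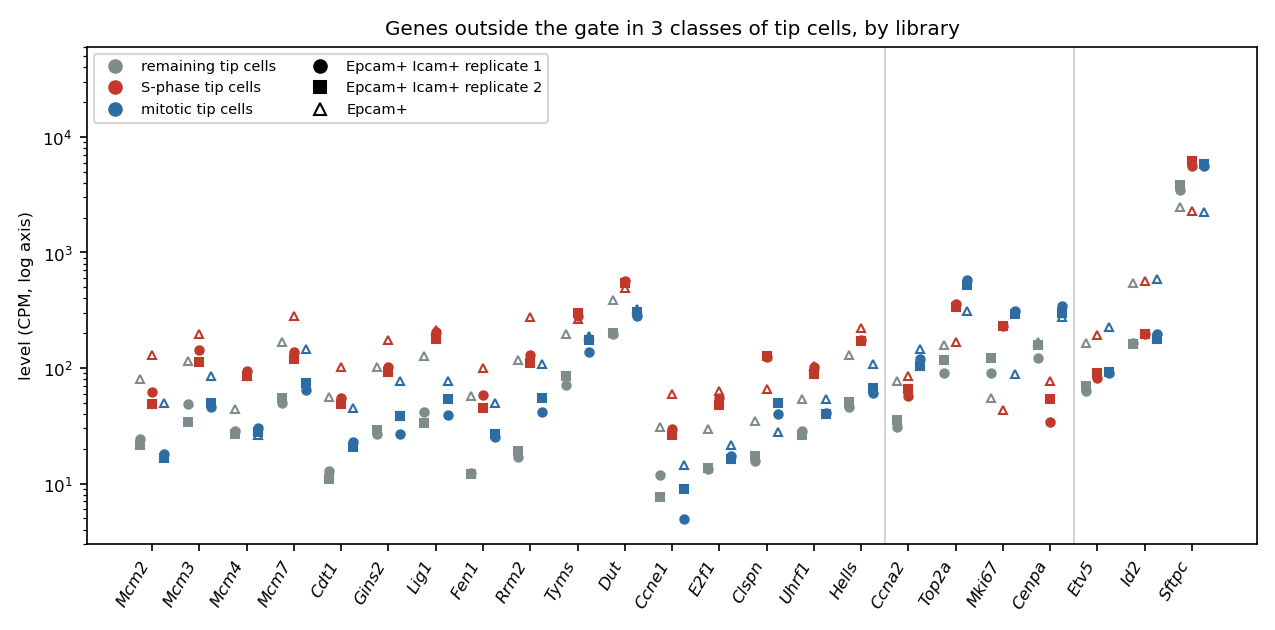
Levels (CPM, log axis) of genes outside the gate in remaining, S-phase and mitotic tip cells, 1 point per library. The vertical lines part replication genes, G2 and mitosis genes, and tip genes; Mcm4 S-phase points (93.6, 84.8 and 85.2) lie above all others of that gene, while Cenpa S-phase points are its lowest.

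**Figure D3:**
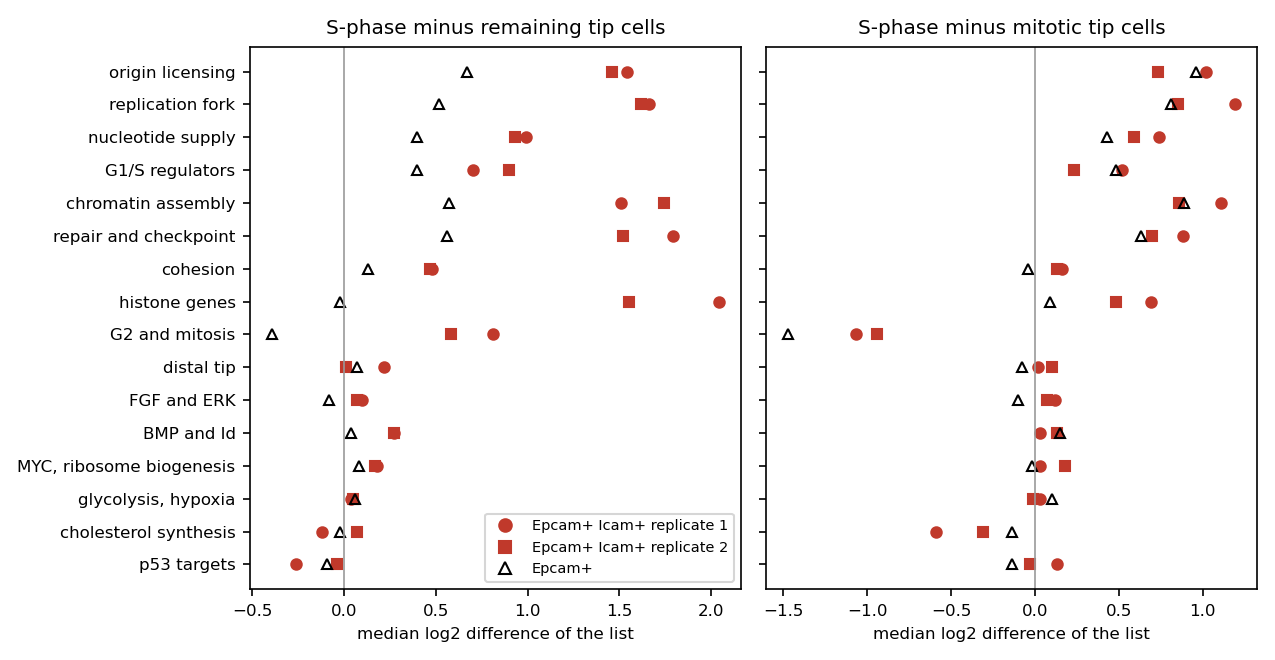
Median log2 difference of each gene list by library, S-phase minus remaining tip cells on the left and S-phase minus mitotic tip cells on the right. The replication lists lie to the right of 0 in both panels, the Epcam+ library (triangles) is nearest to 0 on the left for those lists, and the G2 and mitosis list is at -1.07, -0.94 and -1.47 on the right.

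Some genes outside the lists differed as much as the replication genes. Slfn9, a Schlafen family gene, was at 98.6, 80.6 and 27.6 in S-phase and 9.99, 12.1 and 12.2 in remaining tip cells (2.29 ± 0.34). Fam111a, a protease that acts at replication forks with PCNA, was at 44.4, 54.5 and 55.1 against 7.50, 5.56 and 24.9 (2.01 ± 0.34). Both were higher in each library. Lower in S-phase tip cells were Kdm5b, a histone H3 lysine demethylase, at 64.2, 64.1 and 36.8 against 151, 129.9 and 52.2 (-0.92 ± 0.13), and Mxd4, a MAX partner that opposes MYC, at 60.7, 65.7 and 26.6 against 116, 106 and 35.7 (-0.69 ± 0.11). The potassium channel gene Kcnk2 was at 36.0, 35.7 and 14.2 against 65.2, 63.7 and 24.3 (-0.83 ± 0.10). These 3 were lower in each of the 3 libraries.

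Histone and G2 genes separated the libraries. Of 19 measured replicative histone genes 1 was past the size threshold, with medians of 2.04, 1.55 and -0.02 in the 3 libraries. Hist1h1b, a linker histone, was at 2063, 2155 and 43.5 in S-phase and 333, 586 and 32.5 in remaining tip cells. Its level in the Epcam+ library was low in every class. Hist1h2ap, a core histone, was well detected in all libraries, at 1365, 1506 and 2283 against 221, 379 and 1725, and its S-phase and remaining levels in the Epcam+ library lay closer together than in the other libraries. Hist1h2bc lay the other way, at 33.7, 32.9 and 60.5 against 180.4, 155 and 76.6.

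The S-phase minus remaining difference was set side by side in the sorts as an interaction in edgeR. The gate sits at a higher level in the Epcam+ library, whose remaining tip cells hold more of the 5 genes. The part of the gate in the smaller difference of replication genes there was not tested. The cut on the 4 mitotic genes also differed, at 641.6, 729.4 and 950.2 CPM. The median summed level of these 4 genes was 55.1, 81.3 and 354.1 CPM in remaining and 118.1, 122.6 and 159.2 in S-phase tip cells. The part of this cut in the differences of G2 and mitosis genes between the sorts was not tested either. The Epcam+ arm is 1 library, taken by the fit to vary like the others (1 residual degree of freedom), so the calls are a description. Of 11489 genes 546 (4.75%) had a difference that was higher in the Epcam+ Icam+ libraries and 153 (1.33%) a lower one, 6.08% in all. Higher were 28 of 31 fork genes, 10 of 13 licensing genes and 14 of 20 repair genes. Of 47 G2 and mitosis genes 37 were higher and 2 lower, and of 19 histone genes 16 and 1. Of 18 distal tip genes 4 were higher. With 1 cut for every library the counts were 213 higher and 38 lower, against remaining cells with low scores 309 and 57, and with DESeq2 49 and 2.

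Top2a, the topoisomerase that untangles sister DNA, showed this difference. It was at 359, 335 and 167 in S-phase and 91.2, 118 and 159 in remaining tip cells, so that S-phase cells were higher in the Epcam+ Icam+ libraries and near the remaining cells in the Epcam+ library. The difference between the sorts was 1.70 ± 0.10 on the log2 scale (SE). Cdk1, the mitotic kinase, was at 213, 209.9 and 196 against 46.7, 70.8 and 190.2, with a difference between the sorts of 1.84 ± 0.11. Mki67, the proliferation antigen Ki-67, was at 233, 231 and 43.6 against 89.9, 122 and 55.2, with its S-phase value below the remaining value in the Epcam+ library only. Its difference between the sorts was 1.51 ± 0.13. Some genes of chromosome segregation were lower in S-phase than in remaining tip cells of every library. Cenpa, the centromeric histone, was at 33.9, 53.9 and 77.2 against 123, 158 and 167 (-1.49 ± 0.13), and Ccnb2, cyclin B2, at 25.2, 32.9 and 56.0 against 72.0, 82.7 and 98.1 (-1.19 ± 0.14). Cenpa, Ccnb2, Cdkn3 and Cdc25c were the 4 of 47 G2 and mitosis genes past the size threshold lower.

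**Figure D4:**
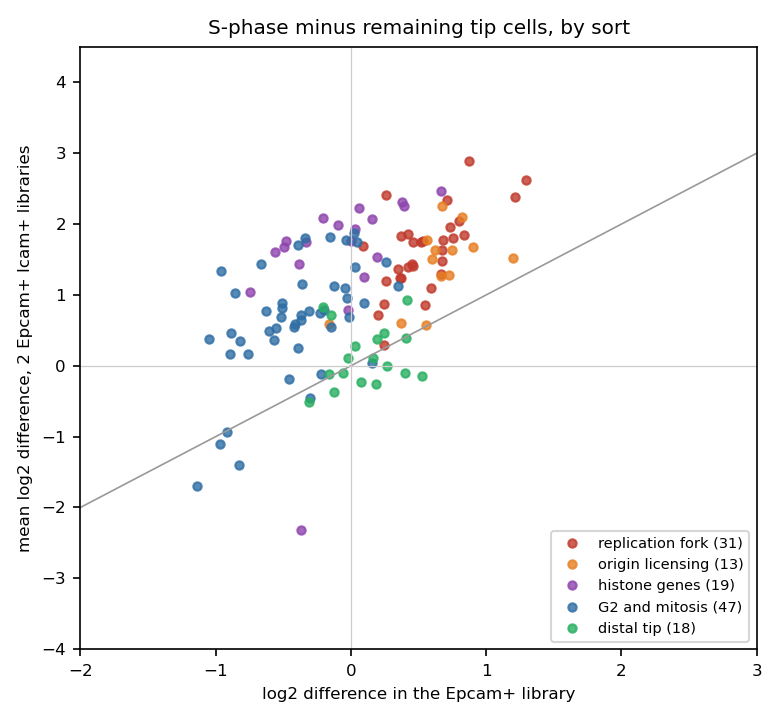
Log2 difference of S-phase minus remaining tip cells in the Epcam+ library (x axis) and as the mean of the 2 Epcam+ Icam+ libraries (y axis), 1 point per gene, for 5 lists, with a grey line where both are equal. Replication fork genes lie above 0 on both axes, and most histone and G2 and mitosis genes lie higher on the y axis than on the x axis.

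Among themselves the S-phase tip cells differed in how far they carried late genes. Each cell was thinned to 5000 UMIs, and an early index summed 8 genes of G1/S and early S outside the gate (Ccne1, Mcm2, Mcm3, Mcm4, Mcm7, Gins2, E2f1 and Slbp) and a late index 8 genes of late S and G2 (Top2a, Ccna2, Cdk1, Mki67, Cenpf, Tpx2, Nusap1 and Kif11). The mean early index was 3.98, 3.46 and 6.52 UMIs in S-phase tip cells, against 1.26, 0.98 and 3.86 in remaining and 1.34, 1.6 and 2.99 in mitotic tip cells. The mean late index was 5.49, 5.55 and 3.33 in S-phase tip cells, between the remaining cells (1.68, 2.21 and 2.96) and the mitotic cells (12.75, 12.1 and 7.75). The mean histone sum was 36.08, 36.98 and 12.15 UMIs in S-phase, 6.74, 9.87 and 8.77 in remaining and 23.06, 27.14 and 9.89 in mitotic tip cells. This sum was highest in S-phase tip cells in every library, but it leaned on fewer genes in the Epcam+ library. There Hist1h2ap was found in 74.6% of thinned S-phase tip cells, Hist1h1b in 16.9% and Hist1h2ae in 21.8%. In Epcam+ Icam+ library 1 the shares were 67.6%, 84.1% and 63.4%. The median log2 difference of the 19 measured histone genes from remaining tip cells was -0.02 in the Epcam+ library. Over cells within a library, Spearman's rho was 0.72, 0.78 and 0.60 between the late index and the histone sum, and -0.13, 0.0 and 0.03 between the early and the late index, over 145, 130 and 248 cells that share a library, its depth and its free RNA.

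Members with a late index of 0 to 1, of 2 to 4 and of 5 or more numbered 34, 45 and 66 cells in Epcam+ Icam+ library 1, 43, 26 and 61 in library 2, and 73, 107 and 68 in the Epcam+ library. These ranges were cut from an index, so they are ranges and not types. Hist1h2ap was at 28.8, 1188.0 and 1998.7 CPM in these ranges in library 1, at 364.4, 1237.0 and 2194.2 in library 2 and at 564.9, 2295.3 and 4070.9 in the Epcam+ library. It was lowest in the cells with the fewest late UMIs and highest in those with the most, in each library. In the lowest range it lay below its level in the remaining tip cells of the same library, given above. The S-phase label is a score of RNA, and DNA synthesis was not measured. Rrm2 was at 36.7, 154.3 and 151.6 in library 1, 42.0, 125.4 and 138.3 in library 2, and 220.9, 278.6 and 322.2 in the Epcam+ library. E2f1 had another order, at 73.4, 63.4 and 42.8 in library 1, 54.6, 64.0 and 37.4 in library 2, and 60.1, 67.5 and 60.6 in the Epcam+ library. It was lowest in the highest range of both Epcam+ Icam+ libraries and nearly level in the Epcam+ library. Median depth was 22671.5, 25797 and 27584.5 UMIs over the ranges in library 1, 23190, 28395 and 28811 in library 2, and 28833, 30731 and 28804 in the Epcam+ library, and its part in these orders was not tested.

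**Figure D5:**
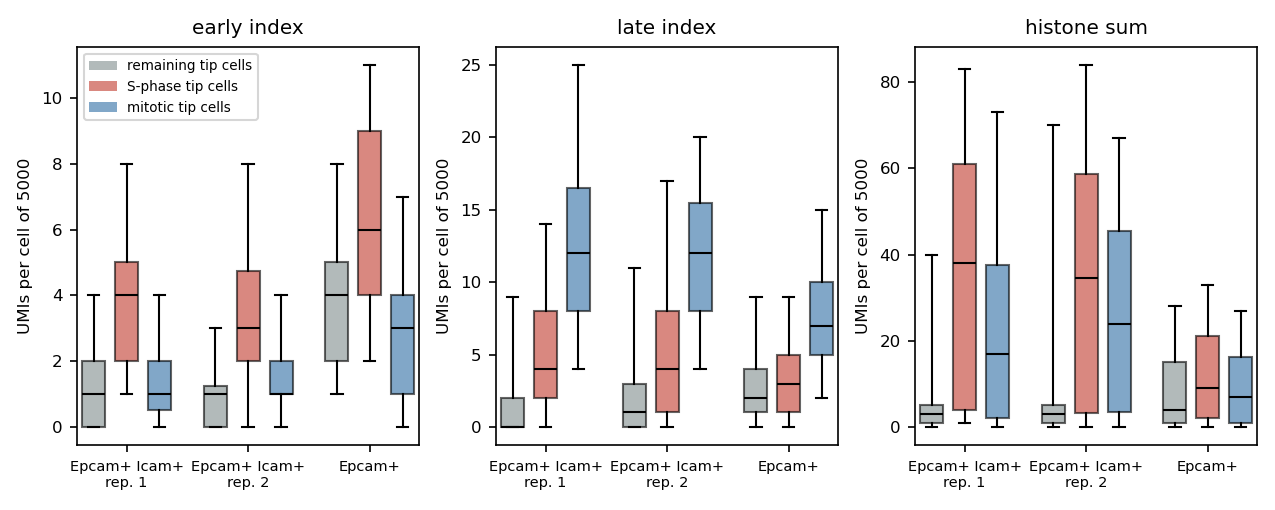
Box plots, per cell thinned to 5000 UMIs, of the early index, the late index and the histone sum by library and class of tip cell (UMIs per cell on the y axis). Boxes span the quartiles with the median as a line, whiskers the 5th to 95th percentile; the S-phase medians are highest for the early index and the histone sum in each library, with a median histone sum of 38 and 34.5 UMIs against 9 in the Epcam+ library.

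Against mitotic tip cells the S-phase tip cells had replication genes higher and G2 and mitosis genes lower. Both classes are defined by gates along this contrast, so the counts are a description. Past the size threshold were 181 genes higher (1.73%) and 155 lower (1.48%) of 10464, and the fit called 593 (5.67%) and 577 (5.51%). In the S-phase tip cells 22 of 31 fork genes and 8 of 13 licensing genes were past the threshold higher, with medians of 0.93 and 0.86. In the G2 and mitosis list 37 of 47 genes were past the threshold lower, with a median of -1.24. Ung was at 56.8, 49.2 and 134 in S-phase and 0.61, 6.20 and 17.4 in mitotic tip cells (3.21 ± 0.18), and Ccne1 at 29.7, 26.1 and 59.0 against 4.91, 9.02 and 14.51 (2.00 ± 0.15). The uracil glycosylase and the S-phase entry cyclin were thus low in mitotic tip cells of every library. Cdt1 was at 23.0, 20.6 and 45.3 in mitotic tip cells (1.20 ± 0.09) and Gmnn at 111, 124 and 148 (0.65 ± 0.07). Geminin is known to stay in G2, and its levels in the mitotic cells lay above those of the remaining cells in the Epcam+ Icam+ libraries and near them in the Epcam+ library. Lower in S-phase tip cells were Aurka, the spindle kinase, at 5.52, 7.30 and 19.8 against 39.6, 38.3 and 121 (-2.62 ± 0.12), and Cenpf, of the kinetochore, at 98.6, 108 and 51.7 against 529, 494 and 270.2 (-2.32 ± 0.07). Hmgb2, a chromatin protein of cycling cells, was at 1669.6, 1741 and 1228 against 2724, 2785 and 1811 (-0.64 ± 0.05) and so lower than in mitotic cells of each library.

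Cholesterol synthesis genes were a group outside the cell cycle that lay lower in S-phase than in mitotic tip cells, with a median of -0.24. By library the medians were -0.59, -0.31 and -0.14. The fit called 4 of 16 lower, against 5.51% lower among all genes, and 0 were past the size threshold. Sqle, squalene epoxidase, was at 25.2, 25.6 and 54.4 in S-phase and 43.6, 34.7 and 64.0 in mitotic tip cells (-0.42 ± 0.11). Msmo1, a later enzyme of the pathway, was at 20.8, 22.2 and 49.0 against 38.4, 33.2 and 60.5 (-0.51 ± 0.11). Both were lower in each library. Against the remaining tip cells the list's median was -0.01. Areg, the EGF receptor ligand amphiregulin, was higher in S-phase than in mitotic tip cells, at 177, 192 and 21.3 against 116, 96.3 and 13.9 (0.79 ± 0.09).

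Tip identity genes differed less between the classes. Of 17 measured distal tip genes outside the gate, 1 was called higher and 1 lower in S-phase against remaining tip cells, with a median of 0.10, beside 1.3% higher and 0.404% lower among all genes. Past the size threshold were 0 of them. Foxp2, a forkhead factor of the distal lung epithelium, was the 1 called higher. It was at 467, 464 and 224 in S-phase, 249.6, 238 and 165 in remaining and 497, 465 and 269 in mitotic tip cells, so S-phase and mitotic cells were close to each other and above the remaining cells in each library (0.76 ± 0.10 against remaining, -0.11 ± 0.06 against mitotic cells). Igfbp5, an IGF-binding protein, was called lower, at 196, 181 and 68.3 against 279, 260.3 and 83.1 (-0.45 ± 0.07). The FGF target Etv5 was at 82.3, 91.3 and 193 against 63.2, 70.3 and 166 (0.31 ± 0.08), and Bmp4, the tip signal, at 24.98, 34.8 and 95.8 against 21.2, 23.5 and 70.8 (0.41 ± 0.11). Both were above the remaining cells in each library, and neither was called. Etv4 was scarce, at 1.31, 1.12 and 15.6 in S-phase tip cells, and so was Lin28b, with 1, 0 and 1 UMIs, so these 2 markers of the early tip add little to the label. The general lung factor Nkx2-1 was at 207, 199 and 231 against 191, 197 and 198.

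Surfactant protein C, Sftpc, which marks the distal lineage and later alveolar type 2 cells, was at 5645, 6244 and 2286 in S-phase, 3444, 3821 and 2485 in remaining and 5647, 5826 and 2239 in mitotic tip cells. Among Epcam+ Icam+ libraries the S-phase and mitotic cells lay above the remaining cells, and in the Epcam+ library the S-phase cells lay slightly below them. The difference between the sorts was 0.86 ± 0.04 (SE) for Sftpc. For Foxp2 it was 0.52 ± 0.09, for Ctnnd2, a delta-catenin gene, 1.04 ± 0.21, and for Id2, the tip inhibitor of bHLH factors, 0.26 ± 0.08. The Epcam+ arm is 1 library, so no SE of a difference between the sorts holds a spread of that sort.

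The signalling and metabolic lists had medians within 0.2 of 0 between S-phase and remaining tip cells. The median log2 difference was -0.10 for 11 FGF and ERK genes, 0.08 for 10 Wnt genes, 0.19 for 11 BMP and Id genes, 0.07 for 18 glycolysis genes and -0.13 for 14 p53 targets. Marker lists with few measured genes varied. The median was -0.5 for 4 airway genes and -0.43 for 4 immune genes, and below 0 in each library for both lists. It was -0.53 for 2 mesenchymal genes (1.19, -1.73 and -0.9 by library) and -1.46 for 3 mast cell genes (-0.03, 0.83 and -2.69). It was 0.22 for 5 alveolar type 2 genes outside the rule and 0.14 for 4 red cell genes (-0.59, -7.23 and 4.37). In the MYC and ribosome biogenesis list 2 of 22 were called higher, both nucleolar proteins, beside 1.3% of all genes, and 0 were past the size threshold. Ncl, nucleolin, was at 849, 823 and 1183 against 693, 714 and 1005 (0.24 ± 0.04), and Nolc1 at 65.2, 55.3 and 135 against 43.2, 39.7 and 98.1 (0.50 ± 0.09). A list of keratins, annexins and EGF receptor ligands, called here the keratin-high list, had 3 of 19 genes called lower, beside 0.404% of all genes, namely Krt8, Anxa1 and Anxa2. It had 0 genes past the size threshold. Anxa1, an annexin, was at 229.5, 231 and 51.8 against 341, 309 and 72.7 (-0.50 ± 0.06), lower in each library. Such calls depend on the libraries kept. Of all genes 43 were called lower, against 12 without Epcam+ Icam+ library 1 and 1 without library 2. Without the library block 0 were called lower, and without the Epcam+ library 798.

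Between the sorts, S-phase tip cells differed across much of the transcriptome. Of 11091 genes 7058 (63.6%) were called, 3567 higher (32.2%) and 3491 lower (31.5%) in the Epcam+ Icam+ libraries, so a call alone is near the background. The sort, the library and the gene table cannot be told apart here. The fit takes the lone Epcam+ library to vary like the 2 others, so the counts are a description. Glycolysis genes were lower in the Epcam+ Icam+ libraries, 13 of 18 against 3 higher. Pkm, pyruvate kinase, was at 531, 528 and 1590.2 (-1.66 ± 0.05 on the log2 scale, SE) and Ldha, lactate dehydrogenase, at 553, 527 and 1329 (-1.37 ± 0.05). MYC and ribosome biogenesis genes were lower too, 17 of 22 against 1 higher. Tip genes split, with 8 higher and 9 lower of 18. Wnt7b, the epithelial Wnt ligand, was at 18.4, 14.0 and 117 (-2.91 ± 0.13), Id2 at 198, 198 and 569.9 (-1.60 ± 0.07) and Cldn6, a fetal claudin, at 227, 201 and 615 (-1.59 ± 0.06), all lower in the Epcam+ Icam+ libraries. Higher there were Foxp2, at 467, 464 and 224 (0.98 ± 0.07), and Igfbp5, at 196, 181 and 68.3 (1.39 ± 0.09).

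Genes of the keratin-high list were higher in the Epcam+ Icam+ S-phase tip cells. The median log2 difference was 1.2 for its 19 measured genes, beside 0.03 for all genes. Areg was at 177, 192 and 21.3 (3.04 ± 0.12), and Itgb6, the epithelial integrin, at 53.1, 61.2 and 6.97 (2.96 ± 0.18). The 7 measured alveolar type 1 genes outside the rule had a median of 1.5. Vegfa, an alveolar type 1 product, was at 53.4, 62.9 and 11.3 (2.29 ± 0.16). The rule had dropped cells above 778.3, 739.9 and 201.1 CPM of its 4 alveolar type 1 genes, a lower ceiling in the Epcam+ library. For its 3 alveolar type 2 genes the cuts were 77.2, 92.6 and 323.8 CPM. The part of these cuts in the levels was not tested. The 20 G1/S regulators split, with a median of 0.27. Among the Cdk inhibitors, Cdkn1b (p27) was at 72.8, 70.0 and 10.6 (2.67 ± 0.16) and Cdkn1c at 1102, 968 and 428 (1.20 ± 0.06), while Cdk4 was lower (-0.97 ± 0.05). The 31 fork genes had a median of -0.37, so the S-phase tip cells of the Epcam+ library, gated at a higher level, held more RNA of most fork genes. Among genes named for their size, Atp6v0c was at 224, 221 and 0.13, which is 1 UMI in the Epcam+ library, and Rnasek at 86.0, 82.3 and 0.13. Of the 12 genes named by size 6 overlap a gene that only one kind of gene table lists, Rnasek among them, and the part of the tables in their levels was not tested. Igfbp4, an IGF-binding protein, was at 7.10, 5.34 and 55.5 (-3.22 ± 0.18).

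Neuroendocrine, endothelial, mesenchymal, immune, mast cell and red cell markers were low in S-phase tip cells, with exceptions that single cells carried. The 6 neuroendocrine markers summed to 0.52, 0.0 and 1.31 CPM (4, 6 and 3 of them at 0) and the 6 endothelial markers to 0.26, 0.84 and 1.18. Mesenchymal markers summed to 21.72, 5.31 and 9.98. Immune markers summed to 105.7, 10.9 and 60.68, of which 1 cell held 68.6%, 10.3% and 42.9%. The rule limits 3 of these 10 markers, so this sum is in part set by it. Mast cell markers summed to 46.05, 4.19 and 8.41, with 92.6% from 1 cell in Epcam+ Icam+ library 1, and red cell markers to 2.88, 3.63 and 1001.05, with 95.6% from 1 cell in the Epcam+ library. The members with 10 or more UMIs of such a list numbered 3, 0 and 4. Without such cells 214 genes were called higher against remaining tip cells. The ciliated markers summed to 25.38, 17.61 and 22.2 in S-phase tip cells, of which 1 cell held 13.4%, 7.9% and 3.6%. Airway genes were present, with a sum of 1229.7, 1060.52 and 454.03 in S-phase against 1669.69, 1737.45 and 703.54 in remaining tip cells. Most of each sum was Cdkn1c, described with the G1/S regulators. Scgb3a2, a secretory airway gene, was higher in S-phase tip cells in both Epcam+ Icam+ libraries and lower in the Epcam+ library, at 105, 75.3 and 5.92 in S-phase against 45.0, 10.1 and 36.2 in remaining tip cells. In Epcam+ Icam+ library 1 a single cell held 73.4% of its UMIs. S-phase cells of the Sox2-positive airway numbered 22, 18 and 42, fewer than the 50 set as the minimum, so no comparison with them was made.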

How the data were processed

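UMI counts per gene and barcode were deposited by the authors for 2 Epcam+ Icam+ libraries and 1 Epcam+ library of mouse lung at E14.5. The submitters' processing notes name Cell Ranger 2.1.1 and mm10. The headers of the deposited count files name Cell Ranger 5.0.1 (Epcam+ Icam+, 32285 genes) and 3.0.2 (Epcam+, 31053 genes). No barcode had fewer than 500 UMIs. The 30406 gene IDs in all tables were kept.

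The members, the 31 gene lists and the tests were chosen with earlier results of these data known. Cells were classed by the rule in Python 3.11.15, and raw counts were summed per library and class. Sums were compared in R 4.3.3 with edgeR 4.0.16 (TMM scaling, filterByExpr, quasi-likelihood test, Benjamini-Hochberg adjusted p of 0.05), with the library as a block where classes were compared. No p is printed, since the class contrasts run along the gated score and the Epcam+ sort is 1 library. Sums held 3559498 to 11187525 UMIs over the S-phase and remaining classes. Genes used by the rule (22) were left out of every count of genes tested, called or past the size threshold. They were kept in the promoter shares and in the summed marker levels. Beside list genes picked by their role, named genes were the 12 with the largest mean log2 difference in each direction for the class comparisons (6 past the threshold for comparisons of the sorts), in the same direction in every library and at a mean of at least 20 CPM, without gene models, mitochondrial, ribosomal protein and globin genes. Alternatives were RLE scaling, no filter, DESeq2 1.42.0, thinning to 5000 UMIs, other gates, no library block, and each library left out. The scripts were tested on simulated data. Doublets were not removed from the values reported. In an alternative the highest scrublet scores (127, 113 and 86 barcodes, at a fixed 0.8% per 1000 barcodes) were left out, 8, 8 and 10 S-phase tip cells among them. Free RNA was not estimated. Promoter windows were RefSeq's (250 bases before to 50 after the start, GRCm38.p6). Values of some list genes are not reported here.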

Additional observations from a re-analysis of the deposited data

Results flagged for a closer look

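For 18 of the 24 genes named for their size in the S-phase minus remaining comparison, the edgeR interaction called a difference between the 2 sorts, beside 6.08% of all 11489 genes. This is a description, since the genes were chosen for their size along the gated score, the Epcam+ arm is 1 library, and its gate sits at a higher level. With 1 cut for every library 213 genes were higher and 38 lower in this test in place of 546 and 153. On the log2 scale, Epcam+ Icam+ minus Epcam+, replication and repair genes were higher by 2.04 (Clspn), 1.55 (Rrm2), 1.37 (Dscc1), 1.2 (Cdc45), 2.04 (Tcf19), 1.78 (Brca1), 1.24 (Ung), 1.62 (Exo1) and 1.64 (Rad51ap1). The repressor E2f8 was higher by 1.83, Slfn9 by 1.86 and Fam111a by 1.8. For genes lower in S-phase tip cells the difference was -1.96 for Hist1h2bc, -0.54 for Cenpa, -0.58 for Ccnb2, -0.6 for Kdm5b, -0.34 for Ccnd2 and -0.78 for Idh1.

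Further genes were singled out by the size of this difference itself. Scgb3a2 had 4.39, with a single cell holding 73.4% of its S-phase UMIs in Epcam+ Icam+ library 1 and 45.1% in library 2. Histone genes had 2.5 (Hist1h3b), 2.28 (Hist1h2bm), 2.26 (Hist1h2ab) and 2.25 (Hist1h3e). In the Epcam+ library they had few UMIs, with 8 in S-phase and 17 in remaining tip cells for Hist1h3b, 28 and 49 for Hist1h2bm, 35 and 59 for Hist1h2ab and 46 and 94 for Hist1h3e. The spindle gene Nusap1 had 2.32. Lyz2 had -2.22, with 97.1% and 99.1% of its UMIs in S-phase and remaining tip cells of Epcam+ Icam+ library 1 from 1 cell each. The glucose-responsive Txnip had -1.0, Rasl11b -0.94, Amer1 -0.82 and Vps26a -0.82.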

How the results depend on the processing

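Genes called higher in S-phase than in remaining tip cells numbered 138, and 669 without a filter on low counts, 331 without the highest doublet scores, 303 with the percentile taken over non-mitotic tip cells, 359 at the 80th percentile, 231 with at least 2 UMIs of Sox9, 698 with 1 cut for every library and 0 without the library block (265 at an unadjusted p below 0.05). Genes called lower numbered 43, and in the same order 255, 99, 98, 104, 44, 238 and 0, and 28 with DESeq2. Against cells with low scores there were 830 higher and 337 lower, and without cells with markers of other types 214 higher, both chosen after seeing the data. With 1 library left out there were 0 to 1284 higher and 1 to 798 lower, the highest without the Epcam+ library and the lowest without Epcam+ Icam+ library 2. Against mitotic tip cells 593 were higher and 577 lower, and with DESeq2 180 and 201, thinned to 5000 UMIs 212 and 176, without the block 0 and 1, and with 1 library left out 292 to 775 and 273 to 618. Within S-phase tip cells the sorts gave 3567 higher and 3491 lower, with DESeq2 1683 and 1501 and thinned 1710 and 1692. For the difference between the sorts, 546 higher and 153 lower, DESeq2 gave 49 and 2, thinning 124 and 16, the 80th percentile 228 and 27, at least 2 UMIs of Sox9 217 and 52, 1 common cut 213 and 38, and low-scoring cells 309 and 57. Lyz2 turned from -2.22 to 0.25 without cells with markers of other types. With shorter E2F letters (GGCGC or GGCGGG) the share was 78.6% of origin licensing genes, 86.4% of G2 and mitosis genes and 50.5% of all genes. The causes were not tested. Of values of named genes in the comparison with remaining tip cells 275 kept their side of the threshold, 57 lost and 28 gained a call, and none turned. No paired analysis was possible because only the Epcam+ Icam+ libraries are numbered, so the sorts share fewer than 2 numbers. Leaving out 1 Epcam+ Icam+ library left 1 library against 1 in the comparison of sorts, which gives values only, and left no residual degrees of freedom for the difference between the sorts, which was not run. With 3 libraries and 1 of a sort, no spread is known for the Epcam+ sort, and depth limits genes of few UMIs.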

Other observations

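Summed alveolar type 2 markers, most of whose UMIs were Sftpc, were at 5806.27, 6356.66 and 2666.53 CPM in S-phase tip cells and at 3647.24, 3913.29 and 2815.14 in remaining tip cells. Summed alveolar type 1 markers were at 2011.73, 2081.9 and 1324.53 in S-phase against 1978.29, 1990.33 and 1246.13 in remaining tip cells, after the cut on both sets that the rule makes.

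In a list of 17 genes that respond to tissue dissociation, edgeR called 4 higher and 1 lower in S-phase than in mitotic tip cells, beside 5.67% and 5.51% of all genes, with a median log2 difference of 0.06. Past the size threshold were 0 of these genes. Fos, an immediate early gene, was at 93.9, 92.1 and 185 in S-phase and 78.0, 82.8 and 141 in mitotic tip cells (0.30 ± 0.07 on the log2 scale, SE), Egr1 at 118, 112 and 39.3 against 89.4, 90.1 and 26.3 (0.43 ± 0.08) and Dusp1, a phosphatase of the ERK pathway, at 56.8, 50.3 and 86.0 against 44.8, 43.7 and 63.7 (0.35 ± 0.08). Zfp36, an RNA-binding protein that destabilises mRNA, was the 1 called lower, at 68.6, 61.8 and 46.3 against 80.4, 80.9 and 53.5 (-0.26 ± 0.08).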
